A study of Homo sapiens with 12 samples.

Results

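The poly-A RNA of human HEK293T cells transfected with a TRIM9 trigger plasmid was compared, gene by gene, with that of cells transfected with a GFP control plasmid. The genes were those with at least 1 FPKM (an abundance scaled to transcript length and library depth) in at least 2 libraries, which left 15183 of 67053 annotated genes. The level of a gene was the sum of FPKM over its transcripts. The TRIM9 trigger group was a GFP reporter with a stretch of TRIM9 in its 3′ untranslated region, the BCL2L11 trigger group the same reporter with a stretch of BCL2L11, and the GFP group the control transfection. All 3 groups were HEK293T, a kidney-derived line that carries the SV40 large T antigen, and RNA was taken 48 h after transfection of 2 µg of plasmid. Cells were transfected with polyethylenimine or with lipofectamine, and the sources used here do not tell which of these a given library received. Each group had 2 libraries, described as biological replicates. The study used the triggers to ask whether they lower their partner microRNAs, miR-218 for TRIM9 and miR-221 and miR-222 for BCL2L11.

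Target-directed microRNA degradation starts when a microRNA pairs extensively with an RNA, beyond its seed, and the Argonaute protein that holds it is then marked for destruction by a ligase that contains ZSWIM8. MicroRNAs lower the mRNAs that match their seed, so poly-A RNA is the layer in which loss of a microRNA can be read through its targets. TRIM9 itself encodes a brain-enriched ubiquitin ligase that acts in netrin-dependent axon growth. Much of what follows concerns heat shock genes, whose transcription is driven by the factor HSF1 through heat shock elements, short alternating GAA and TTC blocks in their promoters.

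The microRNA that the TRIM9 trigger was built against is shown first, because its seed (capitals, bases 2 to 8) sets which mRNAs it can reach. The mature sequence is from RefSeq (GRCh38.p14), and the same 21 bases are made from MIR218-1 on chromosome 4 and MIR218-2 on chromosome 5.
miR-218-5p: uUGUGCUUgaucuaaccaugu

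Heat shock elements are shown for 5 of the chaperone genes that hold one, because their log2 fold changes range from that of HSPA6 (−3.24) to that of HSPA8 (−0.06). The windows are from RefSeq promoter sequences (GRCh38.p14), on the strand of the gene, with the matched element in capitals. The motif searched was GAANNTTCNNGAA on both strands, in windows of 300 bases around each start site. It was found in 0.490% of 35116 windows and in 166 of 27305 genes (0.608%).
HSPA6, chr1:161524460-161524484: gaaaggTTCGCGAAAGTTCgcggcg
DNAJB6, chr7:157336867-157336891: agccgaGAACCTTCGCGAAggtggg
DNAJA1, chr9:33025270-33025294: cgggcgGAACTTTCCAGAAcgctcg
HSP90AA1, chr14:102087114-102087138: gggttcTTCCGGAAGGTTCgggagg
HSPA8, chr11:123062348-123062372: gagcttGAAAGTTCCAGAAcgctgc

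Library size differed between the groups. Transcripts with FPKM above 0 numbered 99690 and 109975 in TRIM9 trigger libraries, 100723 and 109805 in BCL2L11 trigger libraries, and 83584 and 110534 in GFP libraries. Summed coverage ran from 3.397 to 4.52 Gb, and 13830 to 14598 genes reached 1 FPKM. No pair of libraries held identical values (0 of 15 pairs). Of 5 markers of HEK293T, NEFL, NEFM, IRS4 and LIN28B passed the filter and PAX2 did not, with a highest value of 0.613 FPKM. PTPRC, CD3E, HBB, KRT19 and KRT5 were listed at 0 in every library. Other markers of these lists were not: across all libraries the blood marker HBA1 had 2.35 to 7.45 FPKM. The fibroblast marker COL1A1 had 1.27 to 4.02 FPKM, and the epithelial markers EPCAM and CDH1 0.611 to 1.32 and 0.424 to 1.08 FPKM. The summed level of 6 blood markers was 3.99 to 7.83 FPKM in TRIM9 trigger libraries and 3.02 to 7.50 FPKM in GFP libraries, and that of 7 fibroblast markers was 2.59 to 3.31 FPKM in TRIM9 trigger libraries and 1.57 to 2.099 FPKM in GFP libraries. The fibroblast sum was 2.26 to 7.68 FPKM in BCL2L11 trigger libraries. The 5 epithelial markers summed to 1.51 to 2.25 FPKM in TRIM9 trigger libraries and 1.56 to 2.03 FPKM in GFP libraries. In bulk RNA, fewer cells expressing a gene and less of its RNA per cell cannot be told apart. The title numbers place the first library of each group in one run of numbers (library set 1) and the second in another (library set 2), and gene levels differed between the sets. Taken within each set, the difference of TRIM9 trigger minus GFP had the same sign in both sets for 46.52% of the genes tested.

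TRIM9 (chr14:50975262-51096061, minus strand, hg38) was the gene that checked the labels. It had 5297 and 3948 FPKM in TRIM9 trigger libraries, 1.21 and 2.30 FPKM in BCL2L11 trigger libraries, and 1.74 and 2.92 FPKM in GFP libraries. Both TRIM9 trigger libraries stood far above the other 4. TRIM9 rose by 10.45 on the log2 scale of FPKM + 1 (SE 0.36, n = 2 each), with a limma adjusted p of 1.84e-04. TRIM9 took 2.33% and 1.80% of all covered bases in TRIM9 trigger libraries, against 0.00113% and 0.00164% in GFP libraries.

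Of the 6 TRIM9 transcript models, 1 held nearly all of this. ENST00000360392, a model of 3726 nt and 7 exons, had 5296 and 3947 FPKM in TRIM9 trigger libraries, 0.271 and 0.663 FPKM in BCL2L11 trigger libraries, and 0.176 and 0.593 FPKM in GFP libraries. The longer model ENST00000298355 (5284 nt) had 1.07 and 1.17 FPKM in TRIM9 trigger libraries, 0.877 and 1.49 FPKM in BCL2L11 trigger libraries, and 1.55 and 2.07 FPKM in GFP libraries. Both of its TRIM9 trigger values were below both GFP values. The 5 models other than ENST00000360392 summed to 1.21 and 1.52 FPKM in TRIM9 trigger libraries and 1.56 and 2.33 FPKM in GFP libraries. Reads of a transfected stretch of TRIM9 and reads of the cell's own TRIM9 cannot be told apart where the sequence is shared.

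**Figure D1:**
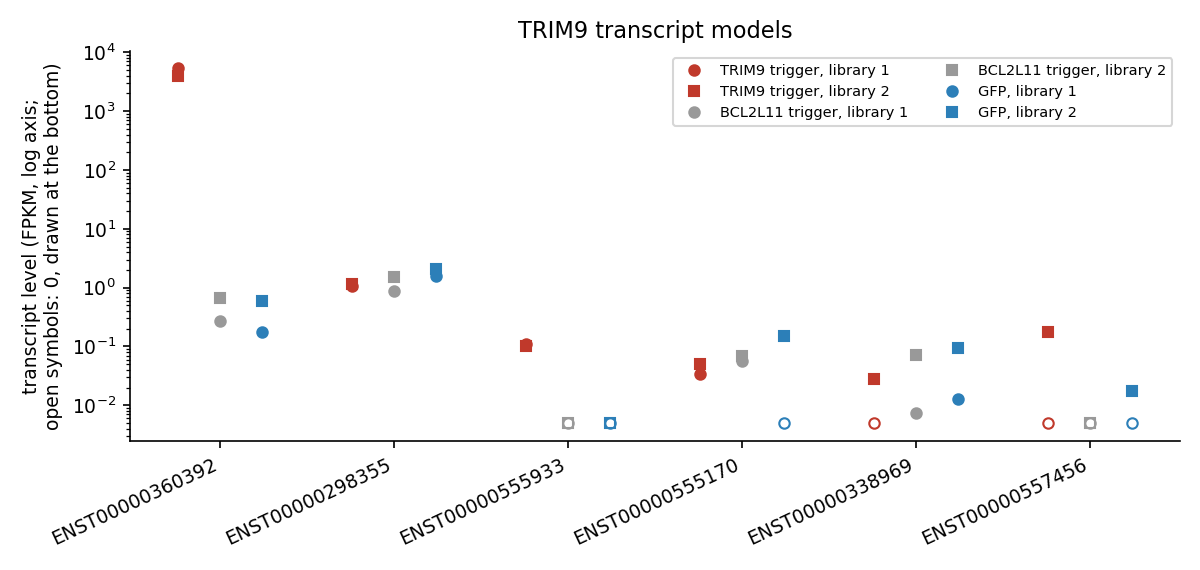
Level of each of the 6 TRIM9 transcript models (FPKM, log axis) in the TRIM9 trigger, BCL2L11 trigger and GFP libraries, 1 symbol per library, with values of 0 drawn as open symbols at the bottom. ENST00000360392 reached 5296 and 3947 FPKM in TRIM9 trigger libraries, and no other model differed by such a distance.

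Across all genes the comparison called 1 gene, TRIM9 itself, at a limma adjusted p under 0.05 (0.00659% of 15183). Unadjusted p was under 0.05 for 175 genes (1.15%), of which 128 were lower in TRIM9 trigger libraries (0.843%) and 47 higher (0.31%). With FPKM rescaled by trimmed mean factors (TMM) the same number split into 105 lower and 70 higher. The split also moved with single libraries: it was 90 lower and 24 higher without TRIM9 replicate 1, 113 and 229 without TRIM9 replicate 2, 73 and 21 without GFP replicate 1, and 144 and 166 without GFP replicate 2. Both TRIM9 trigger libraries lay below both GFP libraries for 1699 genes (11.2%) and above both for 1011 genes (6.66%). The median log2 fold change of all genes was −0.04, and it was 0.02 after TMM, 0.0012 without TRIM9 replicate 1, −0.07 without TRIM9 replicate 2, −0.11 without GFP replicate 1 and 0.07 without GFP replicate 2. In this fit no gene described from here on passed the adjusted threshold, so each is given by its values, and the lists by counts beside these shares.

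The strictly inducible heat shock 70 gene HSPA6 and its copy HSPA7 were the lower genes of lowest p. HSPA6 had 29.6 and 23.5 FPKM in TRIM9 trigger libraries, 267 and 163 FPKM in BCL2L11 trigger libraries, and 274 and 241 FPKM in GFP libraries. Both TRIM9 trigger libraries lay below all 4 others, and their mean was 10.3% of the GFP mean. The log2 fold change was −3.24 (SE 0.36, n = 2 each) with a limma adjusted p of 0.122. With the TRIM9 trigger and GFP libraries fitted alone, HSPA6 passed at a limma adjusted p of 0.00774 and HSPA7 at 0.0418. The neighbouring HSPA7, a near-identical copy annotated as a pseudogene, had 2.47 and 1.94 FPKM in TRIM9 trigger libraries, 18.2 and 16.3 FPKM in BCL2L11 trigger libraries, and 18.4 and 23.1 FPKM in GFP libraries. It showed the same order as HSPA6, with a log2 fold change of −2.76 (SE 0.30) and a limma adjusted p of 0.122. Reads of HSPA6 and HSPA7 can be split between the copies, so the HSPA7 level is uncertain.

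HSPA1A and HSPA1B, the main inducible HSP70 genes, are near-identical and lie also on alternate haplotypes, so their FPKM was summed over loci. HSPA1B then had 504 and 418 FPKM in TRIM9 trigger libraries, 996 and 698 FPKM in BCL2L11 trigger libraries, and 947 and 1095 FPKM in GFP libraries. HSPA1A had 53.6 and 43.2 FPKM in TRIM9 trigger libraries, 98.3 and 77.1 FPKM in BCL2L11 trigger libraries, and 91.5 and 119 FPKM in GFP libraries. For both genes the TRIM9 trigger libraries lay below the other 4. The log2 fold changes of the sums were −1.15 (SE 0.39) for HSPA1B and −1.10 (SE 0.32) for HSPA1A, neither of which passed (limma adjusted p 0.9999 for both).

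The other heat shock 70 genes differed less. HSPH1, a nucleotide exchange factor of HSP70, had 72.8 and 101 FPKM in TRIM9 trigger libraries, 96.2 and 120 FPKM in BCL2L11 trigger libraries, and 121 and 120 FPKM in GFP libraries, with a log2 fold change of −0.49 (SE 0.32). HSPA8, the constitutive cytosolic HSP70, had 723 and 766 FPKM in TRIM9 trigger libraries, 750 and 771 FPKM in BCL2L11 trigger libraries, and 834 and 726 FPKM in GFP libraries. Its groups overlapped, and its log2 fold change of −0.06 (SE 0.36) became 0.0097 after TMM. HSPA5, the HSP70 of the endoplasmic reticulum, had 124 and 130 FPKM in TRIM9 trigger libraries and 157 and 135 FPKM in GFP libraries (−0.20, SE 0.30). HSPA9, the mitochondrial HSP70, had 77.5 and 126 FPKM in TRIM9 trigger libraries and 110 and 133 FPKM in GFP libraries (−0.29, SE 0.37), and its groups overlapped.

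None of the remaining members was at unadjusted p under 0.05 in limma. The log2 fold changes were −0.43 (SE 0.28) and −0.35 (SE 0.38) for the 2 gene IDs of HSPA14, which overlap on chromosome 10 and can share reads. They were −0.27 (SE 0.29) for HSPA4, −0.32 (SE 0.51) for HSPA4L and −0.32 (SE 0.62) for HSPA13. HSPA12A stood at 0.15 (SE 0.35) and HYOU1, an HSP110 relative of the endoplasmic reticulum, at 0.00 (SE 0.28). The chromosome 6 locus of HSPA1A alone had −0.55 (SE 0.47). This family had 14 gene IDs that passed the filter, with HSPA14 counted under both of its IDs. Of these, 6 (42.9%) had both TRIM9 trigger libraries below both GFP libraries, against 11.2% of all genes, and 0 had both above. Unadjusted p was under 0.05 and the level lower for 2 of the 14, HSPA6 and HSPA1B, and the median log2 fold change was −0.32 against −0.04 for all genes. That median was −0.10 without TRIM9 replicate 1, −0.59 without TRIM9 replicate 2 and −0.16 without GFP replicate 2. The count of 2 was 1 without TRIM9 replicate 2, without GFP replicate 1 and without GFP replicate 2.

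**Figure D2:**
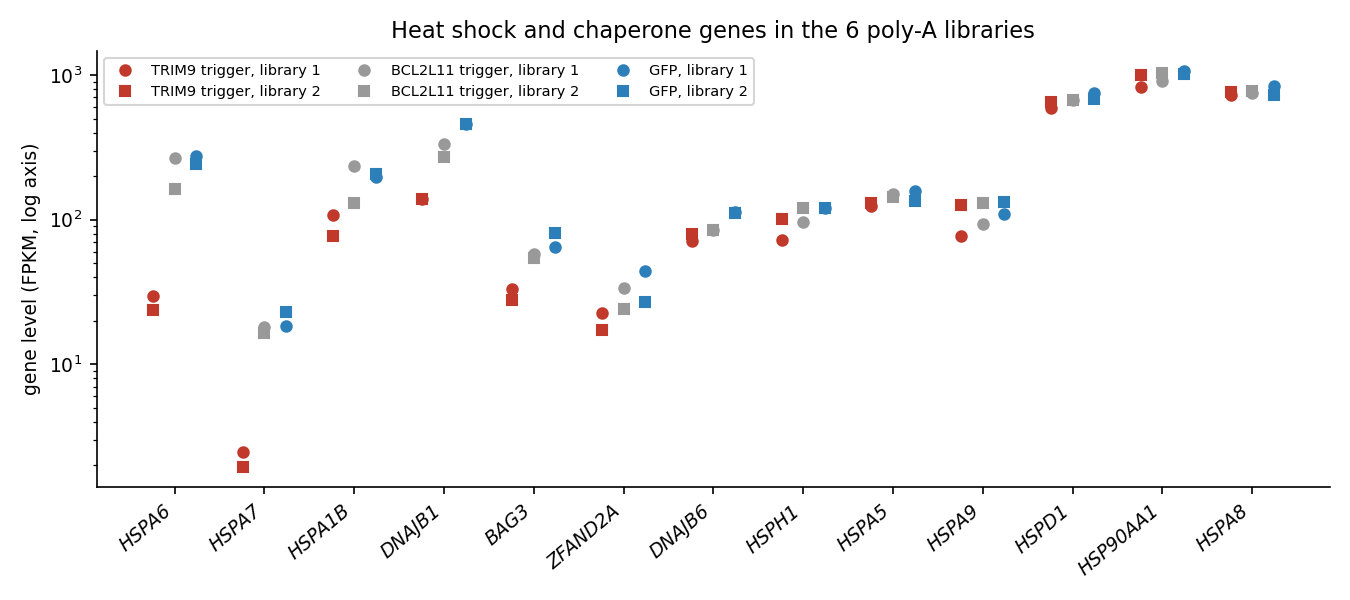
Level (FPKM, log axis) of 13 heat shock and chaperone genes in the TRIM9 trigger, BCL2L11 trigger and GFP libraries, from left to right within a gene, 1 symbol per library and each gene at its chromosomal locus. HSPA6 had 29.6 and 23.5 FPKM in TRIM9 trigger libraries against 274 and 241 FPKM in GFP libraries, whereas HSPA8 overlapped between the groups.

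Among the other chaperones and heat shock factors, DNAJB1 had the lowest p. DNAJB1, the inducible HSP40 that feeds clients to HSP70, had 139 and 139 FPKM in TRIM9 trigger libraries, 333 and 272 FPKM in BCL2L11 trigger libraries, and 458 and 456 FPKM in GFP libraries. The 3 groups did not overlap, and the log2 fold change was −1.71 (SE 0.32). TECR overlaps it on the opposite strand, with 136 and 59.5 FPKM in TRIM9 trigger libraries and 58.9 and 64.7 FPKM in GFP libraries. BAG3, a cochaperone that links HSP70 to autophagy, had 32.9 and 27.8 FPKM in TRIM9 trigger libraries, 57.6 and 54.5 FPKM in BCL2L11 trigger libraries, and 64.8 and 80.8 FPKM in GFP libraries (−1.23, SE 0.29). Its TRIM9 trigger libraries lay below all others as well.

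ZFAND2A, an arsenite-inducible factor of the proteasome, had 22.6 and 17.3 FPKM in TRIM9 trigger libraries, 33.6 and 23.9 FPKM in BCL2L11 trigger libraries, and 44.2 and 26.9 FPKM in GFP libraries (−0.77, SE 0.36). DNAJB6, another HSP40, had 70.9 and 79.9 FPKM in TRIM9 trigger libraries, 84.6 and 84.9 FPKM in BCL2L11 trigger libraries, and 113 and 111 FPKM in GFP libraries (−0.57, SE 0.28). DNAJA1, chosen with its promoter window, had 147 and 145 FPKM in TRIM9 trigger libraries and 211 and 176 FPKM in GFP libraries (−0.40, SE 0.31). In all 3 the TRIM9 trigger libraries lay below the other 4, by much less than in HSPA6. HSPD1, the mitochondrial HSP60, had 587 and 651 FPKM in TRIM9 trigger libraries and 753 and 682 FPKM in GFP libraries (−0.21, SE 0.36).

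Of 26 such genes, 8 (30.8%) had both TRIM9 trigger libraries below both GFP libraries and 0 had both above. Unadjusted p was under 0.05 for DNAJB1 and BAG3, both lower, and the median log2 fold change was −0.20. That median was −0.12 without TRIM9 replicate 2 and −0.08 without GFP replicate 1. Against all 4 other libraries at once, the TRIM9 trigger libraries were lower for 7 of the 26 (26.9%), compared with 3.4% of all genes. The same held for 3 of the 14 heat shock 70 gene IDs (21.4%). The heat shock element was found in the windows of 2 of the 12 heat shock 70 genes matched by symbol, HSPA6 and HSPA8, and of 7 of the 23 other chaperones matched. HSPA6 and HSPA8 thus both hold the element, at log2 fold changes of −3.24 and −0.06. No match was found in these windows for DNAJB1, BAG3, HSPA1A and HSPA1B, which says only that these letters were not there.

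Of 20 immediate early genes, 10 had a fold change below 0 and 10 above. The 3 at unadjusted p under 0.05, ATF3, DUSP1 and FOSL1, were lower. ATF3, a stress-induced transcription factor, had 40.2 and 48.6 FPKM in TRIM9 trigger libraries, 79.2 and 80.8 FPKM in BCL2L11 trigger libraries, and 123 and 141 FPKM in GFP libraries (−1.55, SE 0.29). DUSP1, a phosphatase that switches off MAP kinases, had 18.9 and 19.4 FPKM in TRIM9 trigger libraries, 26.5 and 28.8 FPKM in BCL2L11 trigger libraries, and 46.0 and 55.0 FPKM in GFP libraries (−1.35, SE 0.28). The 3 groups stood apart in the same order for both genes. FOSL1, an AP-1 subunit, had 1.54 and 1.33 FPKM in TRIM9 trigger libraries and 3.25 and 2.97 FPKM in GFP libraries (−0.76, SE 0.29). JUNB, another AP-1 subunit, went the other way, with 14.4 and 9.24 FPKM in TRIM9 trigger libraries and 4.19 and 8.93 FPKM in GFP libraries (0.80, SE 0.40). In this list 4 had both TRIM9 trigger libraries below both GFP libraries (20%) and 2 had both above (10%). The list median was 0.01, and it was −0.06 without TRIM9 replicate 1, 0.02 without TRIM9 replicate 2, −0.29 without GFP replicate 1 and 0.33 without GFP replicate 2.

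Among 22 p53 targets, 10 (45.5%) had both TRIM9 trigger libraries below both GFP libraries, 0 had both above and the median log2 fold change was −0.43 (−0.26 without GFP replicate 2). In HEK293T the large T antigen binds p53. BTG2, an antiproliferative factor, had 6.82 and 7.75 FPKM in TRIM9 trigger libraries, 12.9 and 15.4 FPKM in BCL2L11 trigger libraries, and 15.05 and 15.7 FPKM in GFP libraries (−0.99, SE 0.28). AEN, an apoptosis-enhancing nuclease, had 32.4 and 26.3 FPKM in TRIM9 trigger libraries, 46.0 and 37.8 FPKM in BCL2L11 trigger libraries, and 47.1 and 48.6 FPKM in GFP libraries (−0.69, SE 0.29). These were the 2 targets at unadjusted p under 0.05, and their TRIM9 trigger libraries lay below the other 4. TP53INP1 had 1.19 and 1.86 FPKM in TRIM9 trigger libraries and 2.61 and 4.52 FPKM in GFP libraries (−0.84, SE 0.37), and SPATA18 had 0.904 and 1.63 FPKM in TRIM9 trigger libraries and 1.76 and 4.04 FPKM in GFP libraries (−0.74, SE 0.38). The cell cycle inhibitor CDKN1A, named after its values were seen, had 36.6 and 24.8 FPKM in TRIM9 trigger libraries and 39.0 and 42.9 FPKM in GFP libraries (−0.43, SE 0.32). No p53 target had unadjusted p under 0.05 without TRIM9 replicate 1 or without GFP replicate 2 (0 of 22 each in limma, with 0 adjusted calls too), and 1 had without TRIM9 replicate 2 and when either BCL2L11 library was left out.

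The unfolded protein response, metal and oxidative stress lists held no gene at unadjusted p under 0.05 (0 of 24 and 0 of 12 in limma, and 0 adjusted calls). DDIT4, a stress-induced inhibitor of mTORC1, had 75.5 and 68.2 FPKM in TRIM9 trigger libraries and 25.9 and 60.7 FPKM in GFP libraries (0.83, SE 0.42). DDIT3, the transcription factor CHOP, had 21.7 and 15.4 FPKM in TRIM9 trigger libraries and 35.7 and 24.7 FPKM in GFP libraries (−0.67, SE 0.36). The glutathione-degrading enzyme CHAC1 stood at 0.62 (SE 0.36) and SESN2 at −0.53 (SE 0.32). Both directions therefore occurred within the list, whose median was −0.10, and that of the metal and oxidative stress list was −0.23. The stress list had medians of −0.05 without TRIM9 replicate 1, −0.20 without TRIM9 replicate 2 and 0.06 without GFP replicate 2, and the metal list one of −0.08 without TRIM9 replicate 1.

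Of 15 interferon response genes that passed the filter, 2 were lower at unadjusted p under 0.05. ISG20, an exonuclease, had 0.721 and 0.441 FPKM in TRIM9 trigger libraries, 1.91 and 1.73 FPKM in BCL2L11 trigger libraries, and 2.82 and 3.02 FPKM in GFP libraries (−1.31, SE 0.28). It starts at chr15:88636153, past the end of AEN at 88632281 on the same strand, and whether reads run on from AEN was not tested. IFI27 had 0.423 and 0.545 FPKM in TRIM9 trigger libraries, 1.62 and 1.25 FPKM in BCL2L11 trigger libraries, and 1.51 and 1.56 FPKM in GFP libraries (−0.78, SE 0.26). A second IFI27 gene ID gave almost the same values, so its level per locus is uncertain. Both were low throughout, and the list was mixed: 2 genes had both TRIM9 trigger libraries below both GFP libraries (13.3%), 4 had both above (26.7%), and the median was 0.12 (0.28 without TRIM9 replicate 2 and 0.27 without GFP replicate 2). The count of 2 was 1 without any 1 of the TRIM9 and GFP libraries. IFITM1 was among those above, with 5.31 and 1.48 FPKM in TRIM9 trigger libraries and 1.40 and 0.850 FPKM in GFP libraries (0.91, SE 0.53).

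Replication-dependent histone genes, whose mRNAs are made in S phase and end in a stem-loop in place of a poly-A tail, were the list with most members at low p. Of 65 such genes in the annotation, 35 passed the filter, and 24 of these (68.6%) had both TRIM9 trigger libraries below both GFP libraries, with 0 above. Unadjusted p was under 0.05 for 17 of the 35, all lower (48.6%, against 0.843% of all genes), and the median log2 fold change was −0.77. A gene below 1 FPKM in both TRIM9 trigger libraries passed the filter only through the other groups, so this count depends in part on the filter. With a filter of 5 FPKM the limma count was 5 of 13, beside 46 of 9269 genes. With no filter it was 14 of these 35, beside 646 of 39154 genes. The summed level of the 35 was 223 and 175 FPKM in TRIM9 trigger libraries, 328 and 247 FPKM in BCL2L11 trigger libraries, and 356 and 313 FPKM in GFP libraries. H4C14 had 7.12 and 7.80 FPKM in TRIM9 trigger libraries, 14.97 and 12.8 FPKM in BCL2L11 trigger libraries, and 29.2 and 20.3 FPKM in GFP libraries (−1.59, SE 0.31). H4C8 had 0.644 and 0.681 FPKM in TRIM9 trigger libraries, 2.05 and 1.98 FPKM in BCL2L11 trigger libraries, and 3.87 and 4.15 FPKM in GFP libraries (−1.59, SE 0.27). In both H4 genes the 3 groups did not overlap.

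Members for histones H1, H2A and H3 had a like order. H1-4 had 1.91 and 1.31 FPKM in TRIM9 trigger libraries, 4.06 and 2.49 FPKM in BCL2L11 trigger libraries, and 5.10 and 4.68 FPKM in GFP libraries (−1.18, SE 0.33). H3C2 had 1.43 and 1.82 FPKM in TRIM9 trigger libraries, 2.34 and 1.86 FPKM in BCL2L11 trigger libraries, and 6.48 and 4.61 FPKM in GFP libraries (−1.31, SE 0.31). H2AC18 had 14.4 and 8.10 FPKM in TRIM9 trigger libraries and 25.3 and 23.6 FPKM in GFP libraries (−1.10, SE 0.40), and its near-identical copy H2AC19 gave almost the same values, so these are not separate measurements. The most abundant member, H2BC12, did not share the order: it had 84.1 and 68.5 FPKM in TRIM9 trigger libraries and 62.6 and 88.6 FPKM in GFP libraries (0.03, SE 0.32). H4C11 was the member with the highest fold change, at 0.49 (SE 0.51), with overlapping groups. The count of 17 was 10 without TRIM9 replicate 1, 8 without TRIM9 replicate 2, 10 without GFP replicate 1 and 8 without GFP replicate 2. H2AC18, H2AC19, H2BC12 and H4C11 were named after their values were seen.

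Some other RNAs that carry no poly-A tail were low in the same libraries. RN7SK, the scaffold RNA that holds the elongation factor P-TEFb inactive, had 16.6 and 7.11 FPKM in TRIM9 trigger libraries, 182 and 42.0 FPKM in BCL2L11 trigger libraries, and 202 and 70.04 FPKM in GFP libraries (−3.33, SE 0.80). RPPH1, the RNA of RNase P, had 3.71 and 1.68 FPKM in TRIM9 trigger libraries, 15.5 and 6.17 FPKM in BCL2L11 trigger libraries, and 10.002 and 13.0 FPKM in GFP libraries (−1.80, SE 0.49). RMRP, the RNA of RNase MRP, had 0.469 and 0.816 FPKM in TRIM9 trigger libraries, 26.8 and 2.93 FPKM in BCL2L11 trigger libraries, and 18.2 and 2.36 FPKM in GFP libraries (−2.30, SE 1.05). For these 3 RNAs the TRIM9 trigger libraries lay below the other 4, and the first library of the other groups was far above the second for RN7SK and RMRP.

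The signal recognition particle RNA RN7SL1 did not show this, with 85.6 and 30.4 FPKM in TRIM9 trigger libraries, against 36.4 and 35.9 FPKM in GFP libraries. Its copy RN7SL2 had 92.7 and 27.1 FPKM in TRIM9 trigger libraries and 20.2 and 43.2 FPKM in GFP libraries. Of the 7 such RNAs that passed the filter, 2 were lower at unadjusted p under 0.05, 3 had both TRIM9 trigger libraries below both GFP libraries, and the median log2 fold change was −0.91, which became −0.29 without GFP replicate 1 and −1.63 without GFP replicate 2. The count of 2 was 4 without GFP replicate 2. How much RNA without a poly-A tail each oligo-dT selection let through is not known, and its part in the histone values was not tested. The S phase list, whose mRNAs do carry tails, had 0 of 21 genes at unadjusted p under 0.05 in limma (0 adjusted calls), 6 with both TRIM9 trigger libraries below both GFP libraries (28.6%) and a median of −0.20 (−0.31 without TRIM9 replicate 1). CDC6, a replication licensing factor, had 19.9 and 24.3 FPKM in TRIM9 trigger libraries and 36.2 and 31.8 FPKM in GFP libraries (−0.60, SE 0.29). For MCM6, a subunit of the replicative helicase, the values were 42.5 and 50.3 FPKM in TRIM9 trigger libraries and 63.1 and 60.0 FPKM in GFP libraries (−0.41, SE 0.28), and MCM3 had −0.37 (SE 0.31).

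**Figure D3:**
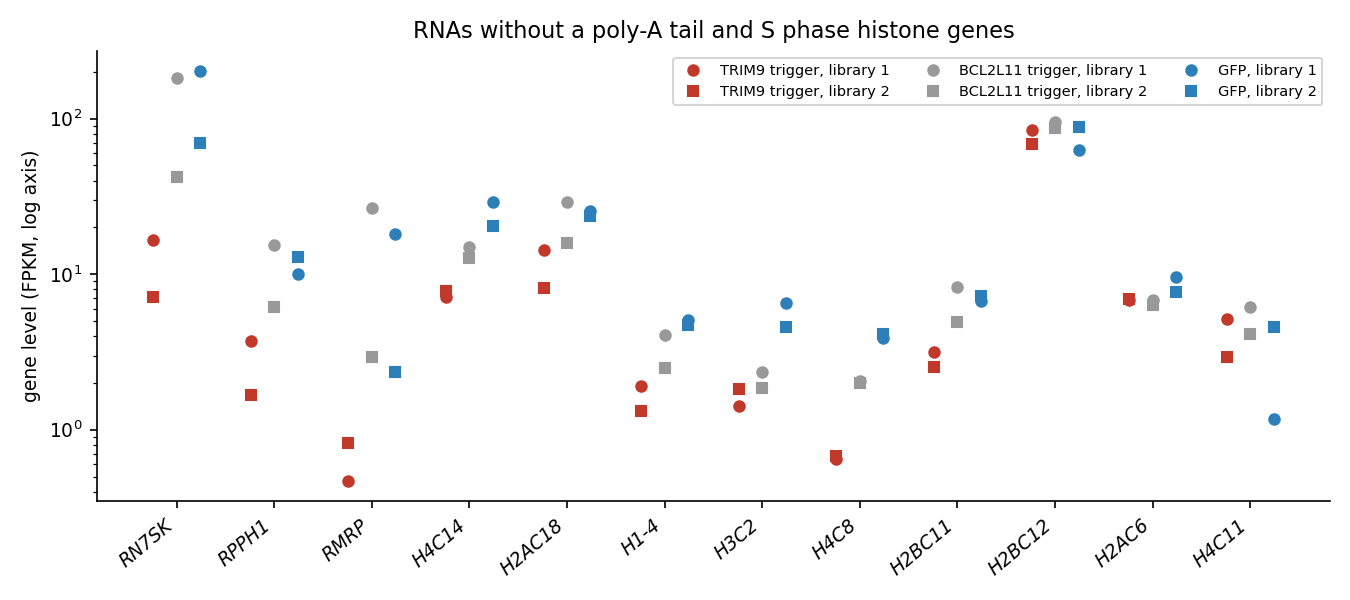
Level (FPKM, log axis) of 3 RNAs without a poly-A tail and 9 replication-dependent histone genes in the TRIM9 trigger, BCL2L11 trigger and GFP libraries, from left to right within a gene, 1 symbol per library. RN7SK had 16.6 and 7.11 FPKM in TRIM9 trigger libraries against 202 and 70.04 FPKM in GFP libraries, whereas H2BC12 overlapped between the groups.

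Among genes higher in TRIM9 trigger libraries, the 2 of lowest p after TRIM9 were models that overlap another gene on the same strand. RAB4B-EGLN2 is a read-through model that joins the small GTPase gene RAB4B to EGLN2, an oxygen-sensing prolyl hydroxylase. It had 16.9 and 9.38 FPKM in TRIM9 trigger libraries, 4.31 and 3.01 FPKM in BCL2L11 trigger libraries, and 0.134 FPKM in 1 GFP library with the other listed at 0 (log2 fold change 3.68, SE 0.37, limma adjusted p 0.122). With the compared groups fitted alone it passed at a limma adjusted p of 0.00774. EGLN2, which overlaps it, had 10.01 and 4.55 FPKM in TRIM9 trigger libraries, 30.1 and 12.04 FPKM in BCL2L11 trigger libraries, and 17.9 and 16.1 FPKM in GFP libraries. Summed over both models the level was 26.9 and 13.9 FPKM in TRIM9 trigger libraries and 17.9 and 16.3 FPKM in GFP libraries, so that the sums overlapped between the groups.

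AC025165.3, which overlaps TSFM on the same strand, had 11.9 and 10.4 FPKM in TRIM9 trigger libraries, 2.79 and 5.42 FPKM in BCL2L11 trigger libraries, and 0.409 FPKM in 1 GFP library with the other listed at 0 (3.36, SE 0.37, limma adjusted p 0.122, and 0.00774 with the compared groups alone). TSFM, a mitochondrial translation factor, had 16.6 and 16.6 FPKM in TRIM9 trigger libraries and 29.5 and 21.9 FPKM in GFP libraries, and the 2 genes together had 28.5 and 27.0 FPKM in TRIM9 trigger libraries and 29.5 and 22.3 FPKM in GFP libraries. The split of reads between overlapping models is thus uncertain for both pairs. URGCP-MRPS24, a further read-through model, had 5.73 and 15.8 FPKM in TRIM9 trigger libraries and 3.93 FPKM in 1 GFP library with the other listed at 0 (2.26, SE 0.98).

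ANKRD1, an ankyrin-repeat target of YAP, was among the 10 higher genes of lowest p. It had 43.6 and 52.9 FPKM in TRIM9 trigger libraries, 49.0 and 46.1 FPKM in BCL2L11 trigger libraries, and 20.5 and 24.4 FPKM in GFP libraries (1.07, SE 0.29), so that both trigger groups lay above GFP. Other targets of YAP and of the actin-responsive factor SRF went the other way. ACTA2, smooth muscle actin, had 6.83 and 1.91 FPKM in TRIM9 trigger libraries, 12.1 and 6.57 FPKM in BCL2L11 trigger libraries, and 14.7 and 14.6 FPKM in GFP libraries (−1.71, SE 0.51). The matricellular protein gene CCN1 had 7.40 and 7.94 FPKM in TRIM9 trigger libraries, 10.2 and 11.2 FPKM in BCL2L11 trigger libraries, and 13.0 and 16.9 FPKM in GFP libraries (−0.87, SE 0.29), and AMOTL2 stood at −0.90 (SE 0.37). Of 17 members, 3 were lower and 1 higher at unadjusted p under 0.05, and 4 (23.5%) and 2 (11.8%) had groups apart in these directions. The lower count was 0 of 17 without TRIM9 replicate 2 and without GFP replicate 2, and 1 of 17 without TRIM9 replicate 1 and without GFP replicate 1, with 0 adjusted calls by limma.

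Single genes outside the lists completed the ranking by p. FERMT3, an integrin adaptor of blood cells, had 1.96 and 0.958 FPKM in TRIM9 trigger libraries, 5.09 and 2.39 FPKM in BCL2L11 trigger libraries, and 11.3 and 11.6 FPKM in GFP libraries (−2.37, SE 0.39). The cytokine gene IL17F had 0.179 and 0.314 FPKM in TRIM9 trigger libraries, 1.85 and 1.66 FPKM in BCL2L11 trigger libraries, and 3.51 and 2.72 FPKM in GFP libraries (−1.72, SE 0.28). In both the 3 groups stood apart in the same order. FERMT3 starts at chr11:64206678, past the end of the chaperone gene STIP1 at 64204543 on the same strand. On the minus strand, IL17F (chr6:52236681-52244500) lies downstream of MCM3 (chr6:52264014-52284881). Whether reads run on from these neighbours was not tested. AC107959.2 (−1.72, SE 0.26) and AC125257.1 (−1.69, SE 0.39) were lower, and MSX2P1 (1.32, SE 0.26), POLR2KP1 (1.07, SE 0.26), PHACTR1 (1.04, SE 0.26), AC011603.3 (1.46, SE 0.37), MIR6768 (0.99, SE 0.28) and GDF1 (1.39, SE 0.39) were higher. Each of these 6 higher genes had under 5 FPKM in every library, and each but MSX2P1 overlaps another gene. Of the lower genes, FERMT3 overlaps TRPT1 and AC107959.2 overlaps TNFRSF10B, both on the opposite strand, and AC125257.1 overlaps KLHL11 on the same strand. MSX2P1, POLR2KP1 and PHACTR1 reached 1 FPKM only in TRIM9 trigger libraries. IL17F, AC107959.2 and AC125257.1 reached it only in the other libraries. Which of these genes were tested and named therefore depends in part on the filter.

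The other large differences at higher levels were larger in library set 1, whose GFP library was the lowest of all. RPL39P3, a ribosomal protein pseudogene, had 701 and 521 FPKM in TRIM9 trigger libraries, 391 and 397 FPKM in BCL2L11 trigger libraries, and 153 and 363 FPKM in GFP libraries (1.36, SE 0.48). CYBA, a subunit of NADPH oxidase, had 23.7 and 8.39 FPKM in TRIM9 trigger libraries, 18.1 and 7.34 FPKM in BCL2L11 trigger libraries, and 4.09 and 6.10 FPKM in GFP libraries (1.34, SE 0.58). GCHFR (1.33, SE 0.58), PDLIM2 (1.24, SE 0.52), AC138811.2 (1.39, SE 0.70) and AC093484.3 (1.63, SE 0.84) were alike, with log2 differences of 2.20 to 2.99 in library set 1 and of 0.27 to 0.33 in library set 2.

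**Figure D4:**
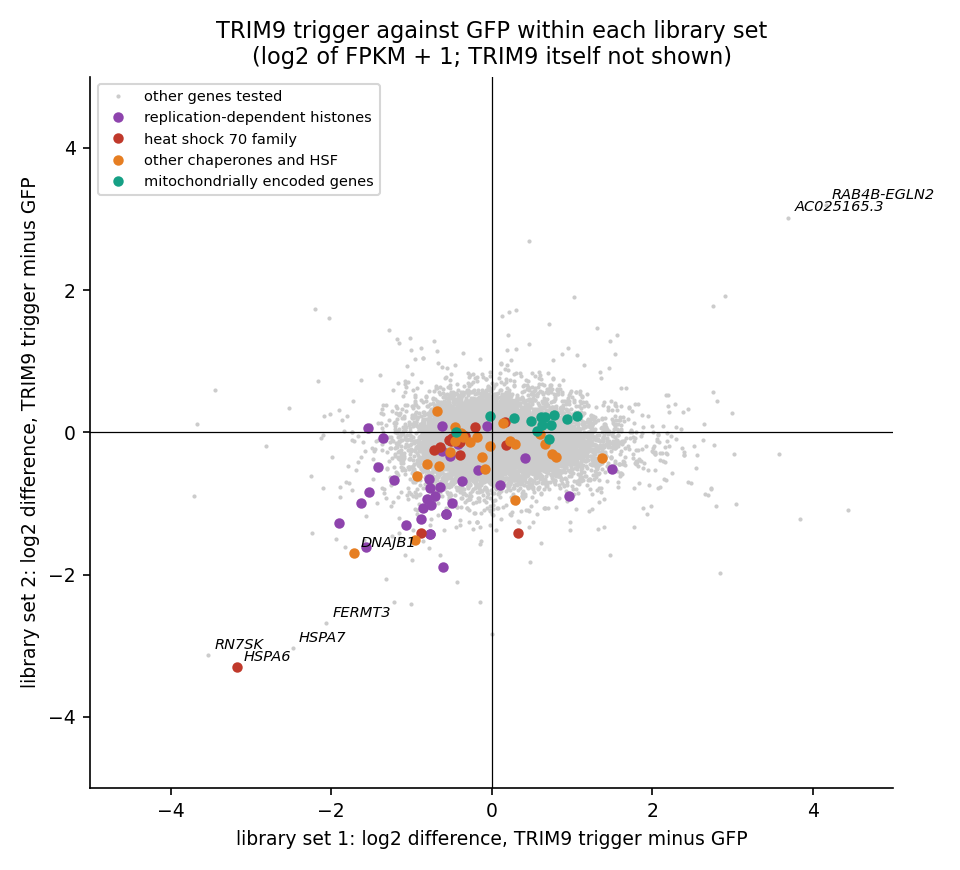
Log2 difference (FPKM + 1) of the TRIM9 trigger library minus the GFP library in library set 1 (horizontal) and in library set 2 (vertical), 1 point per gene on the assembled chromosomes, with 4 lists in colour and TRIM9 left out. HSPA6, HSPA7, RN7SK, DNAJB1 and FERMT3 were lower in both sets and RAB4B-EGLN2 and AC025165.3 higher in both, whereas the cloud of all genes was wider along set 1.

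The miR-218 host gene that passed the filter and the miR-218 targets taken from the literature gave no called difference. SLIT2, a host gene of miR-218 that encodes an axon guidance ligand, had 11.6 and 23.9 FPKM in TRIM9 trigger libraries, 9.30 and 21.1 FPKM in BCL2L11 trigger libraries, and 8.70 and 20.6 FPKM in GFP libraries (0.29, SE 0.57). Its second library was the higher one in every group. SLIT3, the other host, did not pass the filter, with 0.132 and 0.0933 FPKM in TRIM9 trigger libraries and 0.0819 and 0.0990 FPKM in GFP libraries. Of 15 miR-218 targets reported in the literature that passed the filter, 0 were at unadjusted p under 0.05 in limma and 0 were called. The median log2 fold change of these targets was −0.03, against −0.04 for all genes, and 0.03 after TMM, against 0.02. The target median was 0.21 without TRIM9 replicate 1, −0.24 without TRIM9 replicate 2, −0.13 without GFP replicate 1 and 0.17 without GFP replicate 2.

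In the fit by group, the log2 fold changes of single targets were smaller than their SE. ROBO2, an axon guidance receptor, had 0.371 and 1.04 FPKM in TRIM9 trigger libraries and 0.321 and 0.478 FPKM in GFP libraries (0.26, SE 0.34). HMGB1, a chromatin protein, had 152 and 149 FPKM in TRIM9 trigger libraries, 140 and 134 FPKM in BCL2L11 trigger libraries, and 116 and 144 FPKM in GFP libraries (0.22, SE 0.30), and was the 1 target with both TRIM9 trigger libraries above all others. The gap junction gene GJA1 had 13.0 and 30.6 FPKM in TRIM9 trigger libraries and 10.9 and 22.02 FPKM in GFP libraries (0.35, SE 0.56), and LASP1 had 0.22 (SE 0.35). With the library sets as a block the SE of GJA1 was 0.16. In that fit 0 of 15 targets had unadjusted p under 0.05 in limma. A list of seed matches over all genes was not analysed here.

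The machinery of microRNA decay and of TRIM9 itself was likewise without a call. ZSWIM8, the ligase subunit of this decay, named after its values were seen, had 9.98 and 8.56 FPKM in TRIM9 trigger libraries, 10.8 and 8.997 FPKM in BCL2L11 trigger libraries, and 7.29 and 12.3 FPKM in GFP libraries. Of 24 genes of the microRNA pathway and this ligase, 0 were at unadjusted p under 0.05 in limma and 0 were called, 4 had both TRIM9 trigger libraries below both GFP libraries (16.7%) and the median was −0.16. That median was 0.03 without TRIM9 replicate 1, −0.51 without TRIM9 replicate 2, −0.39 without GFP replicate 1 and 0.11 without GFP replicate 2. CUL3, the cullin of that ligase, had 10.5 and 18.7 FPKM in TRIM9 trigger libraries and 20.2 and 19.4 FPKM in GFP libraries (−0.47, SE 0.36), and its partner ELOC had 0.42 (SE 0.32). TENT2, a poly-A polymerase that tails microRNAs, had −0.63 (SE 0.46), and PRKRA, a Dicer partner, −0.39 (SE 0.31). Among 14 relatives and partners of TRIM9, TRIM46 had 1.21 and 1.09 FPKM in TRIM9 trigger libraries and 0.482 and 0.799 FPKM in GFP libraries (0.40, SE 0.26). FSD1 (0.48, SE 0.46), TRIM36 (−0.23, SE 0.36) and ENAH, an actin regulator of axon growth (−0.22, SE 0.50), followed by p. The list median was 0.01, and it was 0.19 without TRIM9 replicate 1, −0.20 without TRIM9 replicate 2, −0.34 without GFP replicate 1 and 0.26 without GFP replicate 2.

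The remaining lists had no member at unadjusted p under 0.05 in limma. The BCL2 family had a median of −0.12 over 15 genes (BCL2L12 0.44, SE 0.49, and BAK1 0.28, SE 0.39), the mitosis list −0.01 over 18, cholesterol synthesis 0.04 over 24 and the proteasome −0.09 over 31. These medians moved with single libraries. Without TRIM9 replicate 1 they were 0.02 for the BCL2 family, 0.30 for mitosis, 0.06 for cholesterol synthesis and −0.30 for the proteasome. Without TRIM9 replicate 2 they were −0.00018, −0.25, 0.09 and 0.26 in that order, without GFP replicate 1 −0.25, −0.13, 0.0016 and 0.18, and without GFP replicate 2 0.05, 0.19, 0.13 and −0.33. BCL2L11 had 3.95 and 6.32 FPKM in TRIM9 trigger libraries and 5.40 and 6.15 FPKM in GFP libraries (−0.17, SE 0.32), so that its groups overlapped. Cytosolic ribosomal protein genes had a median of 0.16 over 83 genes, 9 of them with both TRIM9 trigger libraries above both GFP libraries (10.8%). That median was −0.21 without TRIM9 replicate 1, 0.57 without TRIM9 replicate 2, 0.59 without GFP replicate 1 and −0.22 without GFP replicate 2.

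Mitochondrially encoded genes stood higher in TRIM9 trigger libraries, mainly through 1 GFP library. The 13 genes summed to 31649 and 34207 FPKM in TRIM9 trigger libraries, 27380 and 28961 FPKM in BCL2L11 trigger libraries, and 20411 and 30118 FPKM in GFP libraries. Both TRIM9 trigger sums were above the other 4, and GFP replicate 1 was the lowest. The median log2 fold change was 0.37, and 0.07 without GFP replicate 1 and 0.61 without GFP replicate 2. MT-CO3, a subunit of cytochrome oxidase, had 5339 and 5163 FPKM in TRIM9 trigger libraries, 3958 and 4352 FPKM in BCL2L11 trigger libraries, and 2559 and 4383 FPKM in GFP libraries (0.65, SE 0.52).

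**Figure D5:**
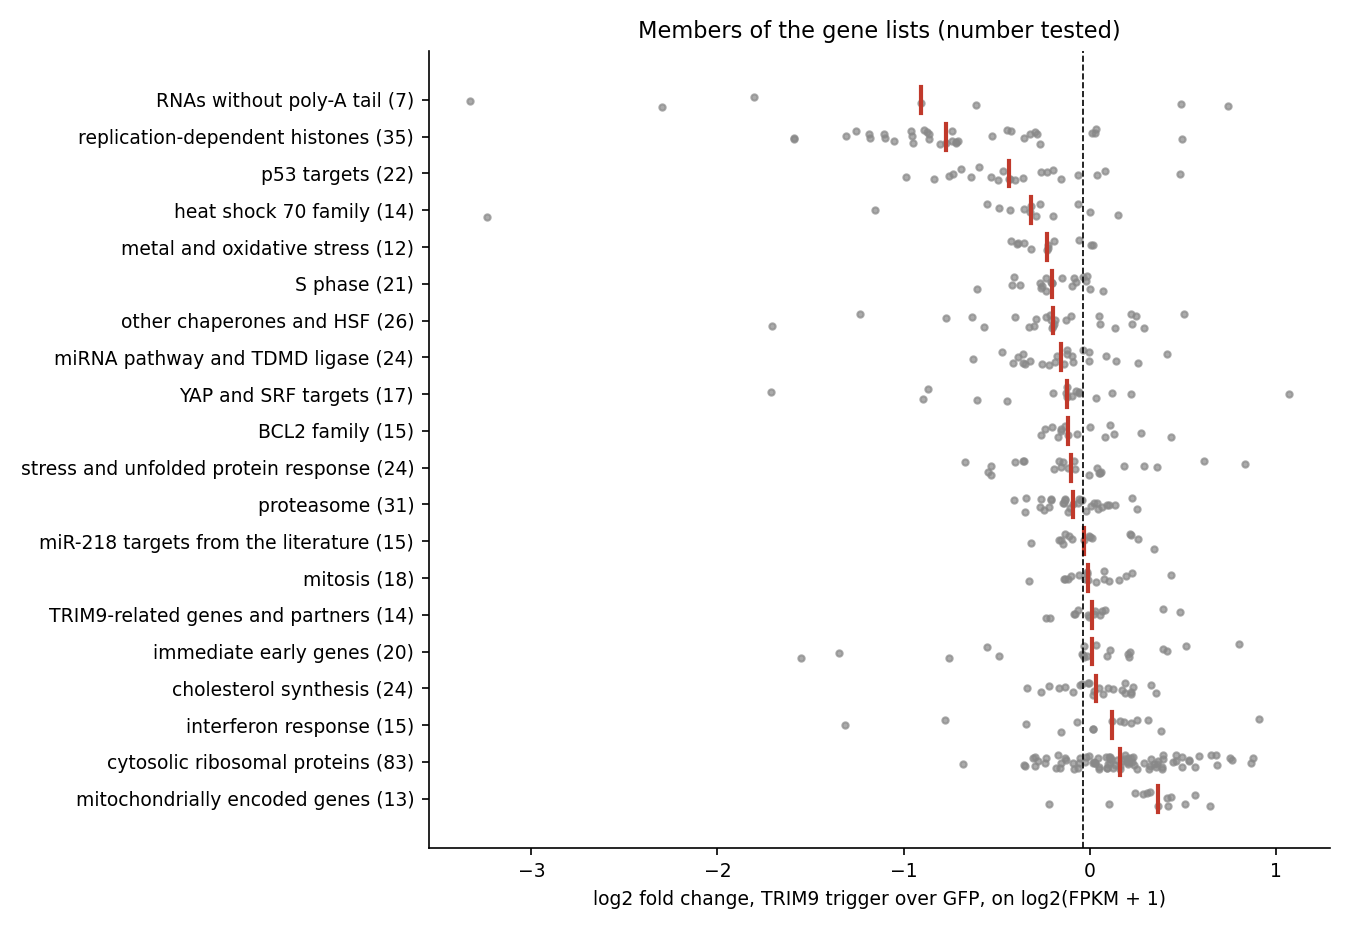
Log2 fold change of the TRIM9 trigger over GFP (FPKM + 1) for each member of the 20 lists with at least 5 genes tested, 1 point per gene, with the list median as a red bar and the median of all genes (−0.04) as a dashed line. Medians ran from −0.91 for RNAs without a poly-A tail and −0.77 for histones to 0.37 for mitochondrially encoded genes.

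The BCL2L11 trigger served as a second comparison for the genes lower than in GFP. Both TRIM9 trigger libraries lay below all 4 other libraries for 516 genes (3.4%) and above all 4 for 403 (2.65%). The share below was 42.9% of the histone genes (15 of 35), 18.2% of the p53 targets (4 of 22) and 15% of the immediate early genes (3 of 20). Above all 4 lay 0 of these histone genes, 0 of the p53 targets and 2 of the immediate early genes (10%). Fitted against BCL2L11 in place of GFP, limma called 2 genes (0.0132%), TRIM9 and BCL2L11, the gene of each trigger. HSPA6 then stood at −2.94 (SE 0.36) on the log2 scale, limma adjusted p 0.214, and DNAJB1 at −1.11 (SE 0.32). Some lists had fewer members lower at unadjusted p under 0.05 by limma than against GFP. The counts fell to 4 of 35 histone genes (median −0.40), 1 of 22 p53 targets, 1 of 20 immediate early genes and 0 of 17 YAP and SRF targets. They stayed at 2 of 14 for the heat shock 70 family, 2 of 26 for the other chaperones and 2 of 15 for interferon response genes. They rose to 3 of 7 RNAs without a poly-A tail (median −1.22) and to 1 of 15 genes of the BCL2 family. Among all 15183 genes the count was 68. TRIM9 trigger libraries are shared by this fit and the comparison with GFP, so the values stand side by side.

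The authors' deposited table of this comparison held 6131 genes, none of them below a q-value of 0.05 (0 genes) and 152 at p under 0.05. The authors' deposited table gave a log2 fold change of 11.78 for TRIM9, −3.28 for HSPA6, −2.70 for HSPA7, −1.71 for DNAJB1 and −1.30 for DUSP1. Its values were 3.75 for RAB4B-EGLN2, 3.55 for AC025165.3, −1.53 for ATF3, −1.21 for BAG3 and −3.67 for RN7SK, in the authors' deposited table. Of its genes, 6128 were also tested here, and 4775 of them had the same sign as in the authors' deposited table. Genes given above whose sign differed were ENAH (1.25 in the authors' deposited table, −0.22 here), ELOC (−0.17 and 0.42) and HYOU1 (−0.17 and 0.0033). The 2 sources rest on the same libraries.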

How the data were processed

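Poly-A RNA of 6 HEK293T libraries was compared, 2 per group. The submitters' processing notes name StringTie 2.1.3, STAR, DESeq2 1.20.0, cutadapt 3.4 and the build hg38, without roles. Tables of 250719 transcripts per library were deposited, with FPKM and coverage signal columns per the file headers and no read counts. The authors' gene table has a ratio (fold change) with its log2 value, and p-value and q-value columns. FPKM is relative, so a transcript that takes a large share lowers the values of others.

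Gene FPKM was summed over transcripts. Genes with at least 1 FPKM in at least 2 libraries were kept, and log2 of FPKM plus a pseudocount of 1 was fitted in limma 3.58.1 (R 4.3.3, trend, group only, all 6 poly-A libraries), with a two-sided contrast of the TRIM9 trigger minus GFP. That scale understates the change of low genes. p was adjusted by Benjamini-Hochberg over 15183 genes with a threshold of 0.05. The smallest p of an exact 2 against 2 test is 0.333. Genes off the assembled chromosomes numbered 994, and 536 symbols named several loci. Use of strand is not stated. The fit was also run on simulated levels of independent libraries, without a difference between library sets. Their spread was not corrected for groups of 2 libraries, so that run does not show how the fit behaves on these libraries. p-values cover only the spread between these libraries.

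Members and gene lists were chosen with earlier results of these data known, and the lists are described by counts and medians only. Named were TRIM9, SLIT2 and SLIT3, the 10 genes of lowest p per direction, the 10 of largest log2 fold change per direction among genes with a mean of at least 5 FPKM, the same sign in both library sets and no overlap of groups, for each list at most 4 members by lowest p, and every heat shock 70 member. Some of these are given only as counts or are not reported here. Also named, after their values were seen, were DNAJA1, HSPD1, HSP90AA1, CDKN1A, ZSWIM8, BCL2L11, RN7SL1, RN7SL2, EGLN2, TSFM and TECR and the histone genes said to be so. Alternatives were TMM factors, a pseudocount of 0.1, a filter of 5 FPKM, no filter, a filter over the compared libraries, no trend, only the compared groups, library sets as a block, BCL2L11 or the mean of both groups as reference, assembled chromosomes only and leaving out each library. Sums of HSPA1A and HSPA1B over loci, counts against all 4 other libraries and list counts under the alternatives were chosen after seeing the data. Promoter and microRNA sequences are RefSeq's (GRCh38.p14).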

Additional observations from a re-analysis of the deposited data

How the results depend on the processing

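TRIM9 passed under every alternative run, at 10.19 to 10.92. The count of genes called, 1 as reported, was 5 with the TRIM9 trigger and GFP libraries alone, 6 with the library sets as a replicate block, 2 against BCL2L11 in place of GFP and 2 against the mean of both, and 1 to 5 when each library was left out. HSPA6, HSPA7, RAB4B-EGLN2 and AC025165.3 were the genes added with the compared groups alone and without either BCL2L11 library. The replicate block added the same 4 (limma adjusted p 0.0360 for HSPA6 and 0.0499 for each of the others) and RN7SK (0.0499), and changed no other call. Labels state no pairing, and deviations of same-numbered libraries from their group means had correlations of 0.493 for TRIM9 and GFP, 0.830 for TRIM9 and BCL2L11, and 0.583 for BCL2L11 and GFP. With the block, 22 histone genes, 9 p53 targets and 5 other chaperones were lower at unadjusted p under 0.05, against 724 (4.77%) of all genes. The count at unadjusted p under 0.05, 175 as reported, was 60 with a filter of 5 FPKM (9269 genes tested), 1197 with no filter (39154 tested), 958 with the replicate block and 98 against BCL2L11. When each library was left out it was 94 to 342: 94 without GFP replicate 1, 114 without TRIM9 replicate 1, 310 without GFP replicate 2 and 342 without TRIM9 replicate 2. The cause was not tested. A group left with 1 library is assumed to vary like the others. Not every gene given above was followed through the alternatives. Among those followed, signs turned for 1 gene with TMM (HSPA8 0.0097) and for HYOU1 against the mean of both (−0.080). Against BCL2L11 they turned for 5 (MCM6 0.0019, HYOU1 −0.16, RPL22L1 0.14, HSPA4L 0.0033, HSPA4 0.096). ENAH (0.17), TRIM36 (0.08) and BAK1 (−0.15), which were not followed, also turned against BCL2L11. With each library left out, the log2 fold change ran from −0.63 to 0.054 for HSPA9, −0.12 to 0.13 for HYOU1, −0.99998 to 0.36 for HSPA13, −0.85 to 0.22 for HSPA4L, −0.29 to 0.87 for SLIT2, −0.24 to 0.93 for GJA1, −0.091 to 0.40 for HSPA12A, −0.028 to 0.54 for ROBO2, −0.15 to 0.58 for LASP1, −0.16 to 0.036 for HSPA8, −1.83 to 0.022 for RNU11 and −1.16 to 0.058 for HSPA1A. The miR-218 seed sites could not be analysed without transcript sequences and were not run. No read counts were used, so the depth behind a low FPKM is unknown, and 2 libraries per group limit every value here.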
